A study of Mus musculus with 4 samples.

Results

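The genes examined here were Apln, which encodes the secreted peptide apelin, and Aplnr, which encodes its receptor, 2 of the 20076 gene rows of a single-cell RNA-seq matrix of whole mouse lung. They were taken by symbol and followed across endothelial cell (EC) subtypes and the other cell types of 9363 cells, of which 2683 were ECs. The libraries labelled WT came from 2 mice with floxed Erg alleles (ERG fl/fl) and those labelled ERG CKO from 2 mice carrying the same alleles together with CDH5-CreER(T), a tamoxifen-inducible Cre recombinase driven by an endothelial promoter. Mice of both groups, on a C57/BL6 background, received 5 injections of 0.5 mg tamoxifen, and lungs were collected 90 days later, so the controls had the drug but not the recombinase. Each library was 1 mouse. The question was how the ligand and the receptor were distributed over lung ECs, and how their levels differed when Cre was present in endothelium. The labels do not give the ages of the mice of these libraries, and other experiments of the study on ERG CKO mice used animals described as young.

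Apelin is cut from a precursor by a proprotein convertase and binds APLNR, a G protein-coupled receptor that signals through inhibitory G proteins and beta-arrestins. In many growing vascular beds apelin is made by tip cells, the leading cells of a sprout, and the receptor by the cells behind them. In the lung the pair marks the 2 kinds of alveolar capillary cell. Apln is a marker of the aerocyte (aCap), a large flat cell of the gas exchange surface, and Aplnr is a marker of the general capillary cell (gCap), which can divide and replace capillary endothelium.

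In GRCm38 (mm10, GENCODE M21 annotation) Apln lies on the minus strand of chromosome X from 48025146 to 48034853, with 3 exons, and Aplnr on the plus strand of chromosome 2 from 85136225 to 85139923, where its longest transcript is a single exon of 3699 bases. ERG belongs to the ETS family of transcription factors, which bind DNA around a GGAA core. The 250 bases upstream of the Apln start, X:48034854-48035103 on the minus strand (RefSeq, GRCm38.p6), are shown because Apln was lower in aCap and higher in gCap of the libraries with Cre. The capitals mark each GGAA or TTCC, the same core read on either strand.

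Apln promoter: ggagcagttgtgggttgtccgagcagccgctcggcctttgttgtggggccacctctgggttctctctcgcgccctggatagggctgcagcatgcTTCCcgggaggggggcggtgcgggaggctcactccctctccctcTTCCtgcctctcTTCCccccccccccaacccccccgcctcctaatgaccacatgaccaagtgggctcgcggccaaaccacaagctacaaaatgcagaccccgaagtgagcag

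The core occurred 3 times, each as TTCC, starting 156, 112 and 100 bases before the gene start. Of 32851 mouse promoter windows of the same length in that table, 93.4% held at least 1 such core, the median was 3, and 54.7% held at least as many as Apln. The count of cores was therefore common, and it is a description of the letters, not of binding. 

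The libraries held 1852 to 3097 cells and 11263911 to 18646776 UMIs (unique molecular identifiers, each marking 1 captured RNA molecule), with medians of 4611 to 4899 UMIs per cell. The targeted gene was not lower in the ECs of the libraries labelled ERG CKO. Erg was at 86.7 and 90.05 CPM in WT compared with 106 and 83.8 CPM in ERG CKO (log2 fold change 0.07 with SE 0.15, edgeR adjusted p = 0.890). The matrix holds 1 count per gene, so loss of the floxed exons cannot be read from it and these counts do not check the deletion. CPM is the count of UMIs of a gene scaled to a common total of UMIs of the class in that library. Replicate 1 of each group was Xist-positive (992 and 1044 CPM) and replicate 2 was Ddx3y-positive (113 and 121 CPM), so sex was balanced between groups for the X-linked gene Apln. With 2 mice per group no exact permutation p can be smaller than 0.33, and p-values below come from models fitted across all genes.

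In the WT lung the ligand and the receptor lay in different capillary cells. ECs held 90.5% of all Apln UMIs in both WT libraries, and 76.8% and 83.7% of all Aplnr UMIs. Within ECs, aCap held 88.2% and 97.0% of the Apln UMIs although they were 9.95% and 14.9% of EC barcodes. The gCap held 59.9% and 64.5% of the Aplnr UMIs, and aCap held 2.45% and 1.68%. The subtypes were named from marker genes, and aCap had a summed level of 11788 CPM over 10 aCap markers against 1609 CPM in gCap. The gCap name was less sharply drawn. Over 8 gCap markers gCap summed to 10770 CPM and aCap to 3989 CPM, but venous ECs had 9994 CPM and arterial ECs 8283 CPM. A cluster left unnamed (EC cluster 1) had 12712 CPM. These levels describe clusters and carry no test between them.

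In WT aCap, Apln was at 378 and 339 CPM, with 1 or more UMIs in 39 of 63 and 62 of 110 cells. The next class in order was platelets, with a mean of 29.3 CPM and libraries that did not overlap those of aCap, and from there to the classes without a UMI each class overlapped the next. In gCap, the largest EC class of WT, Apln was at 4.45 and 1.48 CPM from 6 and 2 UMIs. It had 0 UMIs in WT arterial ECs, where 3 UMIs would have been 30.2 and 29.3 CPM.

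For Aplnr, WT gCap came first at 145 and 199 CPM, and 39.5% and 46.0% of cells had a UMI. An unnamed EC cluster with gCap markers that was led by the arterial-side genes Cxcl12, Sema3g and Hey1 (EC cluster 1) followed at 148 and 159 CPM, so these neighbours did not differ beyond their spread. Venous ECs had 35.3 and 27.8 CPM and aCap 22.4 and 12.3 CPM. As a background level, T cells, which should lack both genes, had a UMI of Aplnr in 0.212% to 0.796% of cells over the 4 libraries at median depths of 5846 to 6336 UMIs. Apln was found in 0 of 472 and 0 of 377 WT T cells, which allows shares of up to 0.636% and 0.796% by counting error (a floor of 3 cells), and in 1 of 507 and 0 of 292 T cells of ERG CKO.

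**Figure D1:**
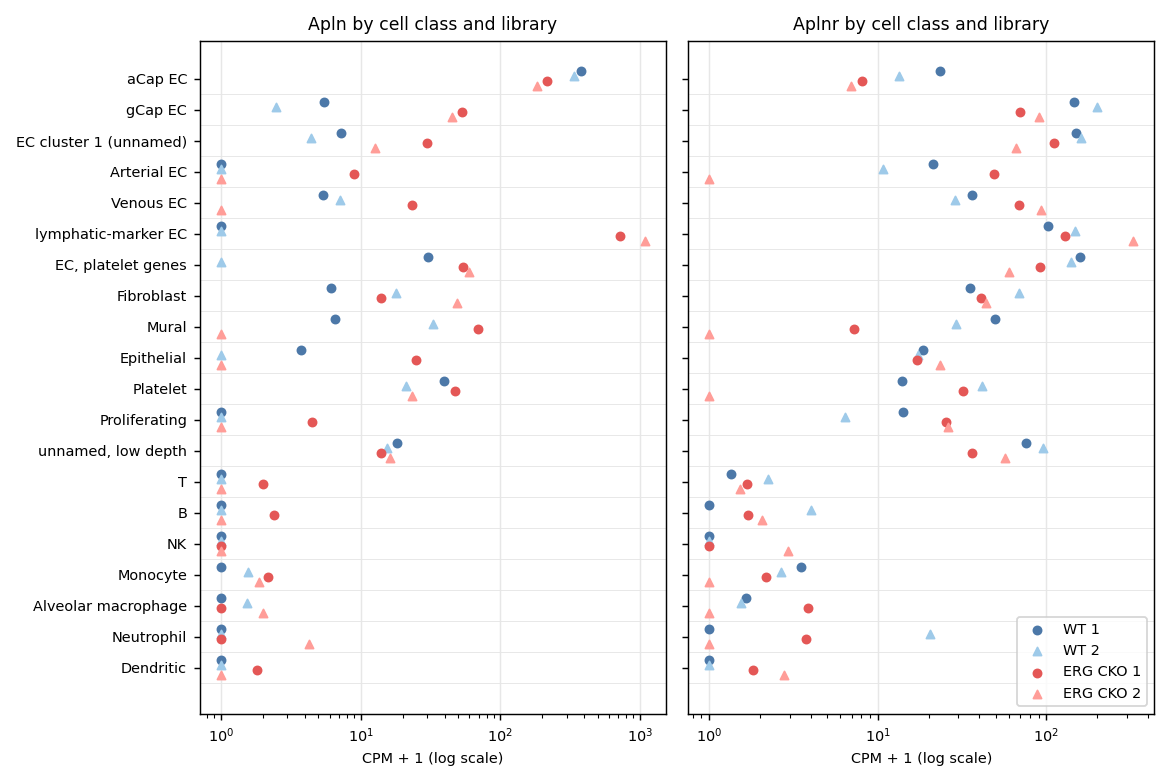
Level of Apln (left) and Aplnr (right) in each cell class, as CPM + 1 on a log axis, with 1 point per library (blue WT, red ERG CKO; circles replicate 1, triangles replicate 2; points at 1 had no UMI). Apln in aCap was at 378 and 339 CPM in WT compared with 215 and 184 CPM in ERG CKO, and the red points exceed the blue ones in gCap and in the EC class with lymphatic markers.

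The receptor was lower in the ECs of both libraries labelled ERG CKO. Aplnr in all ECs was at 115 and 129 CPM in WT compared with 70.7 and 60.9 CPM in ERG CKO, from 327, 417, 334 and 168 UMIs. The groups did not overlap (122 ± 10.03 CPM against 65.8 ± 6.94 CPM, mean ± SD, n = 2 each). The log2 fold change of Aplnr was -0.93 (SE 0.14, adjusted p = 0.0212, edgeR), which is 1.90-fold lower, in a comparison that called 3.0% of 10747 tested genes. The share of ECs with a UMI of Aplnr was 32.2% and 34.1% in WT compared with 22.9% and 15.2% in ERG CKO, although the median EC had more UMIs in ERG CKO (5362 and 4511) than in WT (4121 and 3913). At an equal 1000 UMIs per cell these shares were 11.95% and 12.4% against 7.35% and 4.78%. The call was lost without WT replicate 1 (adjusted p = 0.0782) and without WT replicate 2 (adjusted p = 0.103), fits in which the remaining library of the group was assumed to vary like the other group.

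Because the libraries differed in the mix of EC subtypes, Aplnr was also compared within gCap. There it was at 145 and 199 CPM in WT compared with 69.0 and 89.0 CPM in ERG CKO, from 196, 269, 101 and 76 UMIs, and the groups did not overlap. The share of gCap with a UMI was 39.5% and 46.0% against 26.7% and 24.7%. The log2 fold change of Aplnr was -1.18 (SE 0.21, adjusted p = 0.0307, edgeR), in a comparison that called 1.62% of 9183 genes. It stayed between -1.39 and -0.93 when any library was left out, but the adjusted p was then 0.204 to 0.760, so each of the 4 libraries was needed for the call. With the subtype mix of ECs held the same in all libraries, Aplnr was at 106 and 128 CPM in WT compared with 68.4 and 66.8 CPM in ERG CKO, a log2 ratio of -0.79 against -0.90 as measured.

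In aCap the receptor was close to the limit of detection. Aplnr had 8 and 7 UMIs in WT compared with 6 and 4 UMIs in ERG CKO (22.4, 12.3, 7.04 and 5.89 CPM) and was removed by the filter on low counts. The groups did not overlap, at a difference of -10.9 CPM, but at these counts a difference was not detectable. In EC cluster 1, the arterial-side capillary cells, Aplnr was at 148 and 159 CPM in WT compared with 111 and 65.3 CPM in ERG CKO (log2 fold change -0.78 ± 0.23 SE, edgeR adjusted p = 0.180).

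The ligand behaved differently by subtype. Over all ECs, Apln was at 53.95 and 61.8 CPM in WT compared with 89.99 and 92.8 CPM in ERG CKO, from 153, 199, 425 and 256 UMIs. The groups did not overlap (57.9 ± 5.55 CPM against 91.4 ± 1.99 CPM, mean ± SD, n = 2 each), and the log2 fold change of Apln was 0.61 (SE 0.13, adjusted p = 0.0560, edgeR), which did not pass the threshold of 0.05. With the replicate number, which in both groups also separates the Xist-positive from the Ddx3y-positive mouse, as a block, it was 0.62 and was called (adjusted p = 0.00800, edgeR). The share of ECs with a UMI of Apln was 7.74% and 9.10% in WT compared with 12.7% and 11.5% in ERG CKO, and 3.72%, 3.22%, 5.77% and 5.35% at an equal 1000 UMIs per cell. This pooled value joined a lower level in aerocytes with a higher level in part of the other ECs. In arterial and venous ECs the groups overlapped.

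Within aCap, Apln was at 378 and 339 CPM in WT compared with 215 and 184 CPM in ERG CKO, from 135, 193, 183 and 125 UMIs. Cells with a UMI were 61.9% and 56.4% of aCap in WT compared with 25.3% and 22.7% in ERG CKO, and 32.1%, 23.96%, 12% and 10.5% at an equal 1000 UMIs, after 10, 14, 11 and 11 shallower cells were left out. The groups overlapped on none of these measures. The log2 fold change of Apln in aCap was -0.88 (SE 0.18, adjusted p = 0.00314, edgeR), 1.84-fold lower, in a comparison that called 11.3% of 7387 genes, and it stayed called when any library was left out (-1.01 to -0.77). With each cell thinned to 1000 UMIs before summing it was -0.55 and did not pass (adjusted p = 0.319), and with clusters made without alignment of the libraries it was -1.63 (adjusted p = 2.74e-05, edgeR).

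The aCap class joined 3 clusters, and the lower level lay in the deepest of them. In EC cluster 3, led by the aerocyte genes Fibin and Ednrb, Apln was at 388 and 365 CPM in WT compared with 130 and 203 CPM in ERG CKO (log2 fold change -1.20 ± 0.23 SE, edgeR adjusted p = 0.00248), and 34 of 43, 47 of 59, 25 of 84 and 22 of 66 cells had a UMI. The 2 shallower aCap clusters had overlapping groups, with 413, 178, 299 and 70.0 CPM in EC cluster 6 and 137, 284, 469 and 275 CPM in EC cluster 7. The EC cluster 6 values came from 5, 10, 61 and 11 UMIs. Its match to the aCap markers was weaker, with a mean log2 enrichment of 0.627 against 3.236 in EC cluster 3 and 1.244 in EC cluster 7. These shallower clusters held 20 and 51 aCap in WT compared with 102 and 97 in ERG CKO. The median depth of aCap moved with the groups, at 6147 and 5375 UMIs in WT compared with 4370 and 3978 UMIs in ERG CKO, as did the median mitochondrial share, at 3.75% and 3.76% against 4.69% and 4.60%. Summed markers of alveolar type 1 epithelial cells in aCap were 2006 and 2340 CPM in WT compared with 864 and 877 CPM in ERG CKO. Those of fibroblasts were 33.6 and 28.1 CPM in WT compared with 82.1 and 146 CPM in ERG CKO. The part of depth, mitochondrial share and these markers in the result was not tested beyond the values at equal depth above.

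Strongly positive aerocytes were few in all libraries. Cells with 5 or more UMIs of Apln numbered 12 and 12 in WT aCap and 12 and 9 in ERG CKO aCap, and the highest cell had 12 and 11 UMIs in WT compared with 22 and 18 in ERG CKO. The ERG CKO libraries held 186 and 163 aCap barcodes against 63 and 110 in WT, so these counts were a smaller share of the class there.

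In gCap the difference had the opposite sign. Apln rose from 4.45 and 1.48 CPM in WT to 51.9 and 44.5 CPM in ERG CKO, from 6, 2, 76 and 38 UMIs, with no overlap of the groups. The UMIs lay in 5 of 314 and 2 of 328 gCap in WT and in 14 of 236 and 12 of 154 in ERG CKO, so most gCap of the ERG CKO libraries had none. The log2 fold change of Apln in gCap was 3.97 (SE 0.40, adjusted p = 0.00293, edgeR), but it was lost when any of the 4 libraries was left out (3.39 to 4.91, adjusted p 0.0561 to 0.493).

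Most of these gCap UMIs came from cells that a clustering of all lung cells placed together in a small cluster, here called cluster 16. It took 18 and 23 of the gCap of the ERG CKO libraries and 0 of those of WT, and those cells held 57 of 76 and 36 of 38 of the gCap Apln UMIs. Without them Apln in gCap had 6, 2, 19 and 2 UMIs (4.45, 1.48, 14.1 and 2.75 CPM), the groups overlapped, and the gene no longer passed the filter on low counts. Markers of red blood cells also moved with the groups in gCap. All 5 erythroid markers had UMIs in ERG CKO, at a summed level of 4513 and 6901 CPM against 40.0 and 47.4 CPM in WT, but in ERG CKO the cells with 20 or more erythroid UMIs were 2 and 1 gCap, and they held 0 UMIs of Apln. The 6 platelet markers, all detected in gCap of every library, summed to 21.5 and 39.2 CPM in WT compared with 178 and 78.5 CPM in ERG CKO, and their part in the result was not tested.

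The difference between the 2 capillary subtypes was tested directly with an interaction term. For Apln the log2 fold change in aCap minus that in gCap was -4.84 (SE 0.40, adjusted p = 3.15e-12, edgeR, library as block), in a comparison that called 7.30% of 8900 genes, and it was -5.70 to -4.33 when any library was left out. For Aplnr it was -0.15 (SE 0.55, adjusted p = 0.942), an estimate too wide to tell whether the receptor differed between subtypes in its response. The Apln value rests on the gCap counts described above, most of which lay in cluster 16. The fit held both subtypes of each mouse with library as a block, so few degrees of freedom were left to estimate its error.

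A smaller share of the endothelial Apln UMIs lay in aCap in the libraries labelled ERG CKO. The aCap share of the Apln UMIs of ECs was 88.2% and 97.0% in WT compared with 43.1% and 48.8% in ERG CKO, while aCap were 9.95% and 14.9% of EC barcodes in WT and 24.03% and 30.2% of those in ERG CKO. The gCap share was 3.92% and 1.01% against 17.9% and 14.8%. A class of 51 cells with lymphatic markers (EC cluster 8) held 0% in both WT libraries and 21.2% and 27.3% in ERG CKO. With the subtype mix held the same, Apln in ECs was at 72.5, 60.8, 81.6 and 79.5 CPM, a log2 ratio of 0.27 against 0.66 as measured. For Aplnr the gCap share was 30.2% and 45.2% in ERG CKO.

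**Figure D2:**
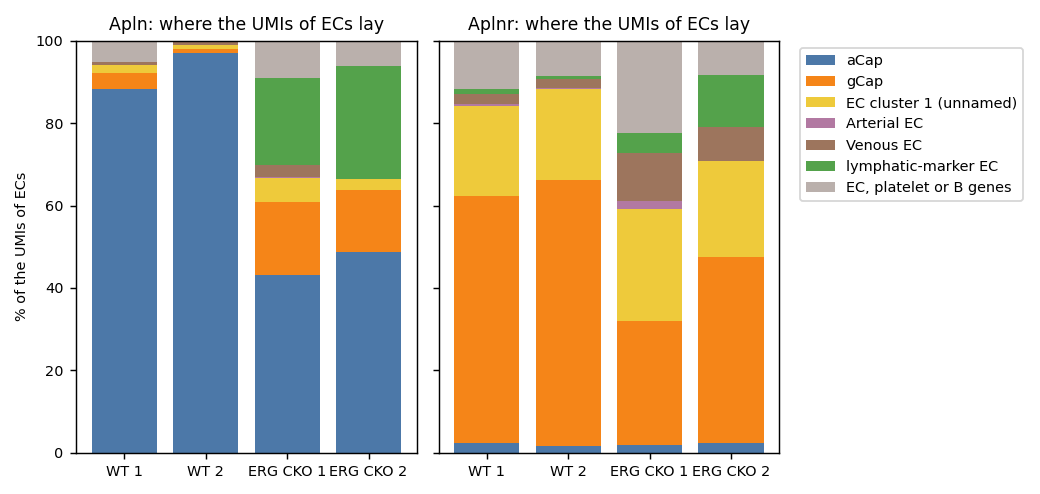
Share of the Apln (left) and Aplnr (right) UMIs of ECs that lay in each EC subtype, in percent, with 1 bar per library. The aCap part of the Apln bars was 88.2% and 97.0% in WT compared with 43.1% and 48.8% in ERG CKO, and the gCap part of the Aplnr bars was 59.9%, 64.5%, 30.2% and 45.2%.

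The highest Apln of any class was in EC cluster 8 of the ERG CKO libraries. Its 23 and 11 cells there had 90 and 70 UMIs of Apln (717 and 1087 CPM), whereas its 10 and 7 WT cells had 0, where 3 UMIs would have been 76.4 and 146 CPM. The class was named from lymphatic markers, but most of its ERG CKO cells did not carry the defining ones. Of the 23 and 11 cells, 15 and 8 had fewer than 3 UMIs of Prox1, Mmrn1 and Ccl21a together, and these held 80 of the 90 and all 70 of the Apln UMIs. Among WT cells, 7 of 10 and 6 of 7 had 3 or more. The Apln-rich cells are therefore called here members of EC cluster 8 and not lymphatic ECs, and with so few WT cells no test was run.

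Cluster 16 drew these cells together from several subtypes. It held 98 and 68 ECs of the ERG CKO libraries and 9 and 11 of WT, and its ERG CKO cells were 50 aCap, 41 gCap, 34 of EC cluster 8, 20 of EC cluster 1 and 21 of the EC clusters that also had platelet or B-cell genes. Apln was at 458 and 453 CPM in its ERG CKO cells, with a UMI in 42.9% and 41.2% of them, and had 0 UMIs in its WT cells, where 3 UMIs would have been 84.5 and 111 CPM. Of its 9 and 11 WT cells, 8 and 7 were of EC cluster 8, 0 and 2 were aCap and none was gCap, so the 2 groups held different cells in it. The ERG CKO cells were 12.7% and 12.6% of the ECs of the ERG CKO libraries and held 61.9% and 56.6% of their Apln UMIs. The clustering used genes that differ between the groups, so the size of cluster 16 is not a result. Without it, Apln over ECs was at 54.6 and 62.3 CPM in WT compared with 39.1 and 45.5 CPM in ERG CKO, and the log2 fold change turned to -0.52 (adjusted p = 0.159, edgeR). Aplnr was also present in its ERG CKO cells, at 166 and 159 CPM, and without cluster 16 the change of Aplnr over ECs was -1.25 (adjusted p = 0.0128, edgeR). Other endothelial clusters of the same clustering of all lung cells did not share the higher Apln. Mean Apln was 4.53 CPM in WT and 4.32 CPM in ERG CKO in its cluster 0, and 5.14 and 1.07 CPM in its cluster 7. In its cluster 15 the means were 4.22 and 9.46 CPM, with overlapping groups.

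Apln outside aCap went together with Angpt2, an antagonist ligand of the TIE2 receptor that is made by activated ECs and tip cells. ECs outside aCap with a UMI of Apln numbered 10 and 5 in WT compared with 51 and 25 in ERG CKO. A UMI of Angpt2 was found in 38 of those 51 and 23 of those 25 (74.5% and 92.0%), against 15.8% and 25.0% of the ECs outside aCap without Apln. In WT the corresponding counts were 1 of 10 and 3 of 5. The tip cell gene Esm1 was found in 17.6% and 12% of the Apln-positive cells of ERG CKO and in 1.49% and 2.56% of the Apln-negative ones. Apln-positive cells were also deeper, with medians of 8191 and 5637 UMIs against 5469 and 4578, and the part of depth was not tested. These shares are over cells of the same libraries and are a description.

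Ligand and receptor were rarely seen in the same cell. UMIs of both genes were found in 9 of 633 and 4 of 736 ECs of WT and in 27 of 774 and 11 of 540 ECs of ERG CKO. The shares were 1.42% (95% exact interval 0.652% to 2.68%) and 0.543% (0.148% to 1.39%) in WT compared with 3.49% (2.31% to 5.04%) and 2.04% (1.02% to 3.62%) in ERG CKO, where the intervals cover counting error only. The group values did not overlap (0.983% ± 0.621 against 2.76% ± 1.03, SD, n = 2 each), and the two-sided exact permutation p was 0.33, the smallest this design allows. No T cell had both.

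Of the 38 co-positive ECs in ERG CKO, 28 were in cluster 16. Without it the shares were 1.44% and 0.552% in WT compared with 1.18% and 0.424% in ERG CKO, which overlapped (difference -0.19 percentage points, two-sided exact permutation p = 0.667). At an equal 1000 UMIs per cell, both genes were found in 0 cells of each WT library and in 2 and 0 cells of ERG CKO, so the share depended on depth and a difference was not detectable at that depth.

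Co-detection in WT ECs was below the product of the separate shares, and in ERG CKO it was slightly above it. If the shares of Apln-positive and Aplnr-positive cells multiplied, 15.8 and 22.8 ECs of WT and 22.4 and 9.41 ECs of ERG CKO would have had both, against the 9, 4, 27 and 11 observed. In WT, Aplnr was found in 18.4% and 5.97% of Apln-positive ECs and in 33.4% and 36.9% of Apln-negative ones. In ERG CKO the shares were 27.6% and 17.7% against 22.2% and 14.9%.

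The 2 genes were then read within and outside aCap. Within aCap, few cells had the receptor whether or not they had the ligand (7.69% and 3.23% against 8.33% and 4.17% in WT, 4.26% and 2.70% against 2.16% and 1.59% in ERG CKO). Outside aCap, Aplnr was found in 6 of 10 and 2 of 5 Apln-positive cells of WT and in 49.0% and 40.0% of those of ERG CKO. The Apln-negative cells outside aCap had Aplnr in 34.5% and 39.5% in WT compared with 27.4% and 19.6% in ERG CKO. Apln-positive cells outside aCap were deeper in all 4 libraries, and these shares carry no test.

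**Figure D3:**
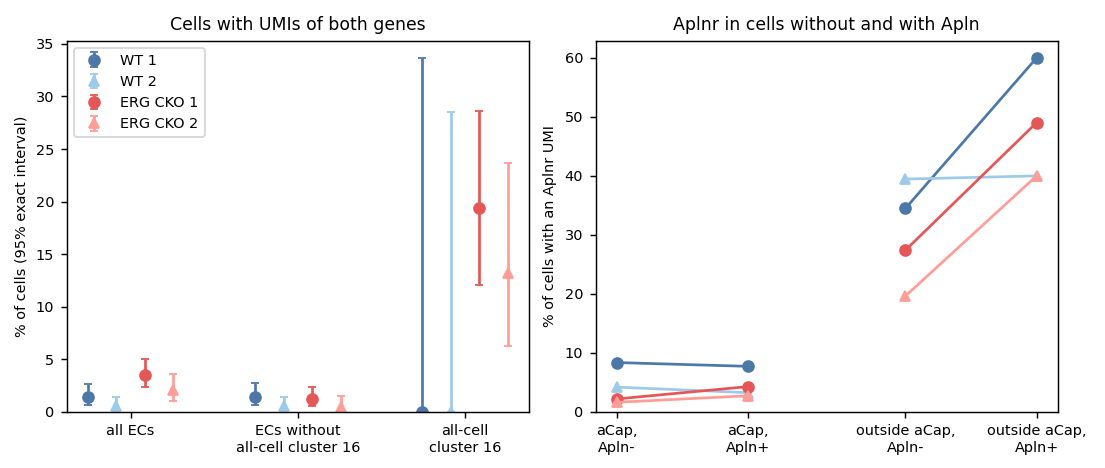
Left, share of cells with UMIs of both Apln and Aplnr in all ECs, in ECs without cluster 16 and in cluster 16, in percent with 95% exact intervals. Right, share of cells with a UMI of Aplnr among Apln-negative and Apln-positive cells, within aCap and among the other ECs, 1 line per library. Co-detection in all ECs was 1.42% and 0.543% in WT compared with 3.49% and 2.04% in ERG CKO, and the groups overlapped without cluster 16.

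In 5 further classes, 7 tests called no change of either gene (0 of 7 with edgeR after adjustment, whereas 5 of 7 had an unadjusted p of at most 0.05). The share of genes called was 0.867% in EC cluster 1, 3.29% in ECs with platelet genes, 0.0209% in venous ECs, 0.593% in fibroblasts and 0.118% in unnamed cells of low depth. In venous ECs, which drain the capillaries, Aplnr was at 35.3 and 27.8 CPM in WT compared with 67.5 and 91.5 CPM in ERG CKO (log2 fold change 1.19 ± 0.40 SE, edgeR adjusted p = 0.400). This was the only one of the Aplnr tests with a positive estimate. In ECs with platelet genes Aplnr was at 157 and 139 CPM against 90.7 and 58.8 CPM (-0.92, adjusted p = 0.143, edgeR) and Apln at 29.6 and 0 CPM against 53.4 and 58.8 CPM (1.86, adjusted p = 0.205, edgeR). In EC cluster 1 Apln was at 6.26 and 3.45 CPM in WT compared with 29.2 and 11.7 CPM in ERG CKO, from 3, 2, 24 and 7 UMIs.

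Aplnr was also found outside the cells named as ECs, which held 75.4% to 83.7% of its UMIs over the 4 libraries. Unnamed cells of low depth had Aplnr at 75.0 and 94.8 CPM in WT compared with 35.1 and 56.1 CPM in ERG CKO, and their WT mean of 84.9 CPM lay above those of venous ECs and aCap. The best marker match of these cells was endothelial, and only their low depth left them unnamed. Fibroblasts had Aplnr at 34.4 and 67.7 CPM in WT compared with 40.1 and 42.8 CPM in ERG CKO, and mural cells, the contractile cells around vessels, had 26, 7, 1 and 0 UMIs of Aplnr (48.5, 28, 6.20 and 0 CPM). For every 100 UMIs of the endothelial genes Cdh5, Pecam1 and Cldn5 there were 1.49, 1.57, 0.987 and 0.854 UMIs of Aplnr in ECs and 1.89, 2.57, 1.38 and 2.19 in fibroblasts. The ratio was 4.62, 4.83, 1.26 and 3.02 in epithelial cells, from 19, 13, 10 and 7 UMIs of Aplnr. The ratio was above that of ECs in every library for fibroblasts and epithelial cells. In mural cells it was 1.48, 1.22, 0.253 and 0, below that of ECs in every library. In the unnamed cells of low depth it was 1.60, 1.94, 0.909 and 1.36, above that of ECs except in ERG CKO replicate 1. Whether any of these cells express Aplnr was not tested. In 4731 cells of 9 immune classes, Apln had 15 UMIs in 13 cells (0.275%) and Aplnr 37 UMIs in 28 cells (0.592%).

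A list of 60 apelin pathway genes was read beside the members, by counts. It was chosen with earlier results of these data known, so its shares of called genes are a description and not a test of the pathway. In ECs 49 were tested and 5 were called (10.2%, against 3.0% of all tested genes), 3 higher and 2 lower in ERG CKO, with a median log2 fold change of -0.09 against 0.01 over all genes. Of 4 tested genes that make or break down the ligand, none was called with edgeR. Apelin is released by the convertase furin, and Furin was at 74.0 and 60.9 CPM in WT compared with 58.4 and 62.4 CPM in ERG CKO (-0.20, adjusted p = 0.575, edgeR). Mme, which encodes neprilysin, a peptidase that cuts apelin, had 5, 5, 20 and 12 UMIs (1.32, adjusted p = 0.215, edgeR).

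Among genes of receptor coupling 1 of 10 rose. Rgs5, a regulator that ends G protein signals, was at 8.46 and 6.21 CPM in WT ECs and 30.5 and 32.6 CPM in ERG CKO (log2 fold change 2.06, adjusted p = 0.00887, edgeR). Rgs5 is also a marker of pericytes, and the 7 mural markers summed to 40.9 and 79.8 CPM in WT ECs and 45.7 and 26.8 CPM in ERG CKO. Of the 13 tested nuclear mediators and targets, only Gja4 was called. This gene encodes connexin 37, a gap junction protein, and it fell from 252 and 288 CPM in WT ECs to 71.6 and 115 CPM in ERG CKO (-1.60, SE 0.21, adjusted p = 0.0135, edgeR). The flow-responsive factor Klf2 had an estimate of 0.10 (adjusted p = 0.849, edgeR) and Nos3, endothelial nitric oxide synthase, had an estimate of -0.52 (adjusted p = 0.469, edgeR).

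Upstream and tip cell genes gave the other calls. Angpt2 rose from 13.8 and 22.4 CPM in WT ECs to 88.9 and 132 CPM in ERG CKO (2.54, SE 0.26, adjusted p = 0.00725, edgeR). Fli1, the ETS factor closest to Erg, rose from 134 and 129 CPM to 269 and 233 CPM (0.90, adjusted p = 0.0193, edgeR), and the receptor gene Notch1 fell from 275 and 242 CPM to 168 and 131 CPM (-0.82, adjusted p = 0.0415, edgeR). Esm1, of the tip cell list, had an estimate of -0.41 (adjusted p = 0.60, edgeR). Without WT replicate 1 the list had 3 calls and without WT replicate 2 it had 2, whereas it had 9 and 8 without ERG CKO replicates 1 and 2.

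The list was also read within the 2 capillary subtypes. In gCap 4 of 47 were called (8.51%, against 1.62% of all genes), with Gja4 lower (-1.63, adjusted p = 0.0136, edgeR) and Fli1 (0.85, adjusted p = 0.0307), Fgfr1 (2.99, adjusted p = 0.0365) and Angpt2 (2.37, adjusted p = 0.0496) higher. Leaving out WT replicate 1, WT replicate 2 or ERG CKO replicate 2 left 0 of these calls, and leaving out ERG CKO replicate 1 left 1. In aCap 7 of 41 were called (17.1%, against 11.3% of all genes). Angpt2 had 0 and 3 UMIs in WT aCap and 159 and 118 UMIs in ERG CKO (adjusted p = 3.88e-07, edgeR), Fli1 rose (1.83, adjusted p = 1.82e-05), and so did Ackr3, an atypical chemokine and adrenomedullin receptor (30.8 and 21.1 CPM to 129 and 98.7 CPM, adjusted p = 0.000135). Notch1 (-2.07, adjusted p = 2.79e-06), its ligand gene Dll4 (-1.45, adjusted p = 0.000664), the VEGF receptor gene Kdr (-1.08, adjusted p = 0.000827) and Klf4 (-0.59, adjusted p = 0.0300) fell in aCap.

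**Figure D4:**
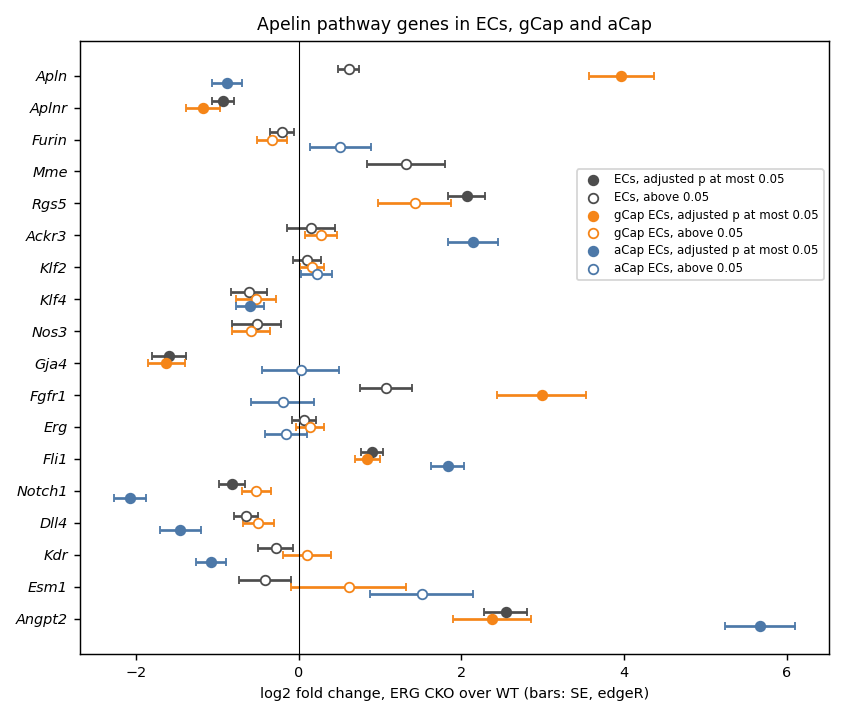
Log2 fold change, ERG CKO over WT, of Apln, Aplnr and named apelin pathway genes in ECs (grey), gCap (orange) and aCap (blue), with bars of 1 SE from edgeR; filled points had an adjusted p of at most 0.05. Apln lies at 3.97 in gCap and at -0.88 in aCap, and the aCap value of Angpt2 rests on 0 and 3 WT UMIs and depends on the prior count of the fit.

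The genes whose level across 18 cell classes of at least 50 cells was most like that of Apln were Tnfrsf11b (Pearson r 0.944), Nos2 (0.926), Htr2b (0.923), Angpt2 (0.922) and Rspo3 (0.919). Tnfrsf11b, which encodes the decoy receptor osteoprotegerin, was highest in aCap at 94.8 CPM over all libraries, and the other 4 in EC cluster 8. That class had 51 cells, and counting error was not computed for these levels. Htr2b was only slightly higher there than in aCap (18.3 CPM), so its order is not settled. These levels were summed over both groups. With WT alone r was 0.838 for Tnfrsf11b, 0.626 for Nos2 and 0.02 for Angpt2, and with ERG CKO alone it was 0.930, 0.951 and 0.965. For Aplnr they were Tril (0.957), Adamts9 (0.957), Crybb3 (0.95), Arhgef26 (0.943) and the later of the 2 rows named Pcdhga8 (0.940), all highest in EC cluster 8, and r was 0.664 to 0.895 with WT alone and 0.860 to 0.937 with ERG CKO alone. The classes share their libraries, so these correlations describe the pattern of levels and carry no p.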

How the data were processed

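Whole lungs of 4 mice were dissociated and profiled by droplet single-cell RNA-seq. The authors deposited raw counts of UMIs for each gene and cell, without normalization. The submitters' processing notes name Cell Ranger 3.1.0 and mm10. The annotation version was not given in the sources used here. Samples were grouped by the genotype in their labels. Nothing was removed: the lowest cell had 500 UMIs and 300 genes. Scrublet (scanpy 1.11.5) called 60 cells (0.641%) doublets, which were kept, and any 2 libraries shared 0 to 4 cell barcodes. Replicates differed by more than sampling noise (chi-square per degree of freedom 15.9 in WT and 17.4 in ERG CKO).

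Cells were clustered in Seurat 5.3.0 (2000 variable genes, CCA alignment of libraries, 30 dimensions, resolution 0.8) and ECs again (20 dimensions, resolution 0.6). Apln, Aplnr, the pathway list, Erg, Xist and Y-linked genes were left out of the variable genes, and for ECs also the 322 genes called in ECs. Clusters were named from marker lists when at least 3 markers were enriched, so the names are not those of the study, and values that differ from it may do so for that reason. Counts were summed per library and class and tested in R 4.3.3 with edgeR 4.0.16 (quasi-likelihood fit, TMM, filterByExpr, Benjamini-Hochberg over all genes tested). A gene was called when its adjusted p was 0.05 or lower. Classes with under 20 cells in a library were not tested. To compare shares at equal depth, cells were thinned to 1000 UMIs. Shares of cells have exact Clopper-Pearson intervals and the floor is 3 counts, both for counting error only. The fits were tested on simulated counts. The alternatives were DESeq2 1.42.0, other size factors, no filter, the replicate number as a block, leaving out each library, doublets or cells over 10% mitochondrial UMIs, thinning, other clusterings and cells taken by marker UMIs. Leaving out cluster 16 or the mixed EC clusters, EC cluster 3 alone, gCap with EC cluster 1, and likeness within each group were added after the data were seen.

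Apln and Aplnr, the pathway list and the marker lists were chosen with earlier results of these data known. Genes named were Apln, Aplnr, Erg, the pathway genes called in ECs, gCap or aCap, a fixed set of pathway genes whatever their result (1 of them is not reported here), and the 5 genes most like each member. Prox1, Mmrn1, Ccl21a, the split at 3 UMIs of them and the Angpt2 and Esm1 shares were chosen after values were seen. Apela is not analysed here.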

Additional observations from a re-analysis of the deposited data

Results flagged for a closer look

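The genotype difference of Apln differed between the 2 capillary subtypes by a test of the difference itself. The log2 fold change of ERG CKO over WT in aCap minus that in gCap was -4.84 (SE 0.40, adjusted p = 3.15e-12, edgeR interaction term), with lower Apln in aCap of both ERG CKO libraries and higher Apln in gCap of both. It kept its sign under all 9 alternatives run. Leaving out cluster 16 or the alignment was not among them, and in both of those settings Apln in gCap did not pass the filter on low counts. Of the ERG CKO Apln UMIs in gCap, 57 of 76 and 36 of 38 lay in cells of cluster 16.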

How the results depend on the processing

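The Aplnr fall in ECs kept its direction under all 16 alternatives (-1.08 to -0.82 without single libraries) and lost its call only without WT replicate 1 or WT replicate 2, while the value with the subtype mix held had no test. Apln in ECs, 0.61 and not called, was called without a filter on low counts (0.62), at 1000 UMIs per cell (1.23) and with cells taken by marker UMIs (0.72). It ranged from 0.52 to 0.71 without single libraries, of which the fits without ERG CKO replicate 1 or 2 were called, was 0.27 with the subtype mix held, and reversed to -0.52 without cluster 16. Aplnr in gCap lost its call without a filter (-1.19), at 1000 UMIs (-1.06), at a stricter marker limit (-1.02), without alignment (-1.31) and when any single library was left out (-1.39 to -0.93). Apln in gCap lost its call when any single library was left out (3.39 to 4.91) and was not tested at 1000 UMIs, without cluster 16 or without alignment, where it did not pass the filter. Apln in aCap lost its call at 1000 UMIs (-0.55) and kept it without single libraries (-1.01 to -0.77), without alignment (-1.63) and without cluster 16 (-1.35). The Aplnr difference in aCap, -10.9 CPM, was -2.78 CPM at 1000 UMIs, 7.65 CPM without alignment and -15.9 to -5.82 CPM without single libraries, and it was not called without a filter (log2 fold change -1.34, adjusted p = 0.263, edgeR). The aCap against gCap difference of Apln ranged from -5.70 to -4.33 without single libraries. That of Aplnr ranged from -0.86 to 0.43 without single libraries. It reversed at 1000 UMIs (0.96) and without WT replicate 1 (0.43) or ERG CKO replicate 2 (0.13). With cells taken by marker UMIs the Aplnr value was -0.004 (SE 0.19). The difference in co-detection, 1.78 percentage points, was 1.05 to 2.51 without single libraries and reversed without cluster 16 (-0.19). The pathway list in ECs had 5 calls, 10 without a filter and 2 to 9 without single libraries. Except for the omitted libraries and cells themselves, the causes were not tested.

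The labels do not say that replicate numbers pair mice, but in both groups replicate 1 was Xist-positive and replicate 2 Ddx3y-positive, so the block is also a block on sex. Same-numbered deviations correlated at 0.306 in ECs, 0.198 in gCap and 0.0737 in aCap. With the replicate number as a block Apln in ECs was called (0.62, adjusted p = 0.00800, edgeR) and the pathway list had 10 calls. The block changed no other call on the members. Aplnr in aCap had under 10 UMIs in each library, and Apln in gCap had under 10 in both WT libraries.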
